A study of Mus musculus with 16 samples.

Results

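Chemokines are small secreted proteins that guide leukocytes through G protein-coupled receptors, and the gut epithelium makes several of them constantly or on demand. The genes described here are 10 such ligands that colon epithelial cells can express: Ccl5, Ccl6, Ccl9, Ccl20, Ccl25, Ccl28, Cx3cl1, Cxcl1, Cxcl5 and Cxcl16. They were chosen by name out of 45513 genes in the count tables, with earlier results of the same comparison known. Their values between the sorted populations are therefore given as a description, and nothing is read from their calls in the test over all genes.

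The colon of 8 mice of the genotype Atoh1(WT)CreERT2; Rosa26tdTom/+, on a C57BL/6 background, gave all libraries. All 8 carried the knock-in of CreERT2 downstream of the Atoh1 coding sequence and a Rosa26 tdTom reporter, and all were given 1 mg tamoxifen per day on 3 days. The study's methods describe adult mice of both sexes. There was no untreated and no Cre-negative group. Live EpCAM+ cells of each mouse were sorted into tdTom+ and tdTom- cells, which gave 8 libraries of each kind, paired by mouse. ATOH1 is the basic helix-loop-helix factor that commits intestinal cells to the secretory fate, so the label marks cells that expressed Atoh1 and their progeny. The tdTom- cells hold the remaining epithelium, mostly of the absorptive lineage. The study describes enteroendocrine and tuft cells as unlabelled soon after a single pulse of tamoxifen, and enteroendocrine cells as labelled some days later. All libraries here had 3 daily doses, which its methods used to label all secretory lineages as fully as possible. The mouse numbers in the labels fall into 3 series, which are called mice 1 to 3, mouse 4 and mice 5 to 8.

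Atoh1 itself had a median of 127 CPM (counts per library, scaled to a common library size) in tdTom+ cells and 5.38 CPM in tdTom- cells, and it was higher in tdTom+ cells of 8 of 8 mice. Total counts ran from 16482530 to 45791503 per library, and a level of 3 counts, taken as the floor, equalled 0.0655 to 0.182 CPM. The floor covers counting error only, while the standard errors and intervals come from the fit over 8 libraries per group and include the spread between mice. Unless the mouse is named as a block, they do not use the pairing of libraries by mouse. In these bulk samples fewer cells of a type and less RNA per cell cannot be told apart.

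Among the chemokines, CCL6 and CCL9 belong to a rodent branch of the CC family that signals mainly through CCR1 and attracts myeloid cells. CCL20 draws CCR6-bearing dendritic cells and lymphocytes, CCL25 acts through CCR9 and is best known from the small intestine, and CCL28 recruits CCR10-bearing plasma cells to mucosae. CX3CL1 and CXCL16 are made as transmembrane proteins that can be shed, with CX3CR1 and CXCR6 as receptors. CXCL1 and CXCL5 attract neutrophils through CXCR2, and CCL5 attracts T cells and monocytes.

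Ccl6 and Ccl9 are neighbours on the minus strand of chromosome 11 in GRCm38, Ccl6 (ENSMUSG00000018927) at chr11:83587882-83593087 and Ccl9 (ENSMUSG00000019122) at chr11:83572919-83578636, with 9.246 kb between them. The 250 bases upstream of each RefSeq start site are shown because these are the members that stood higher in tdTom+ cells. They lie at chr11:83593088-83593337 and chr11:83578637-83578886 on the minus strand (RefSeq, GRCm38.p6). Capitals mark every run of at least 12 bases that both sequences hold on the same strand.
Ccl6: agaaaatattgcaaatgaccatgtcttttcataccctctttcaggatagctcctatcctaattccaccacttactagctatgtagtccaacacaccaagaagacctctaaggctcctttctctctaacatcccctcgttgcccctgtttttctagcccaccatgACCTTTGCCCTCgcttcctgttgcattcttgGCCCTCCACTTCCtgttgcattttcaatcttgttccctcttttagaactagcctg
Ccl9: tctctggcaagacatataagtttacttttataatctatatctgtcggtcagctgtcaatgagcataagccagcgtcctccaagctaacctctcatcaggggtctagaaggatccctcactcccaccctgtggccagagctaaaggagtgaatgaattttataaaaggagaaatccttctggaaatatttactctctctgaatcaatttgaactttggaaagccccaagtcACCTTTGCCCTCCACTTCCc
The run ACCTTTGCCCTC begins 86 bases before the start site of Ccl6 and 20 bases before that of Ccl9. The run GCCCTCCACTTCC begins 55 and 14 bases before them, so the runs overlap in Ccl9 and lie apart in Ccl6. Of 32849 windows of 250 bases upstream of other start sites, 2 hold the first run and 3 the second.

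Windows of 250 bases upstream of the start site were at hand for 7 of the 10 genes, with 2 for Ccl25 and none for Ccl5, Cxcl5 or Cxcl16. CAGCTG, an E-box of the kind that basic helix-loop-helix factors bind, was searched on both strands. It was found in 2 of these 8 windows, 202 bases before the start site of Ccl9 and 183 bases before that of Ccl28, and in 4271 (13%) of all 32851 windows. TATAAA, the core of the TATA box, was found in 3 of 8 windows (Ccl9, Ccl25 and Cx3cl1) and in 12.4% of all. GGG and CC with 5 bases of any kind between them, a loose form of the NF-kB site, were found in 4 of 8 windows (Ccl9, Ccl20, Ccl28 and Cxcl1) and in 45.8% of all, with GGGAATTTCC 71 bases before the start site of Cxcl1. These matches describe the letters of the windows only, and none of the 3 motifs was found in the window of Ccl6.

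Ccl6 was the most abundant of the 10 genes in tdTom+ cells by a wide margin. Its level in the 8 tdTom+ libraries was lowest at 1394 CPM in mouse 4, had a median of 1698 CPM and was highest at 2428 CPM in mouse 2. In the 8 tdTom- libraries it ran from 25.3 CPM in mouse 4 through a median of 51.4 CPM to 90.8 CPM in mouse 6. The groups did not overlap, and every tdTom+ library held at least 29204 reads of Ccl6 against at most 1899 in a tdTom- library. The means were 1801 ± 395 and 54.2 ± 22.4 CPM (SD, n = 8 each), and the log2 fold change was 5.06 (SE 0.25), or 33.3-fold. Of the 15841 genes tested, 14 had a larger log2 fold change. Within a mouse, the ratio of the levels was smallest in mouse 6 and largest in mouse 1, at 4.05 and 5.93 on the log2 scale.

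Ccl9 stood higher in tdTom+ cells as well, at a far lower level. The tdTom+ libraries held 40.4 CPM in mouse 5 at the lowest, a median of 79.4 CPM and 120 CPM in mouse 1 at the highest, and the tdTom- libraries held 2.84, 4.497 and 7.55 CPM. No tdTom- library came near a tdTom+ library. The means were 80.7 ± 26.1 and 4.99 ± 1.62 CPM, with a log2 fold change of 4.04 (SE 0.22), or 16.5-fold, and 92 genes tested had a larger log2 fold change than Ccl9. Both genes were higher in tdTom+ cells of 8 of 8 mice.

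**Figure D1:**
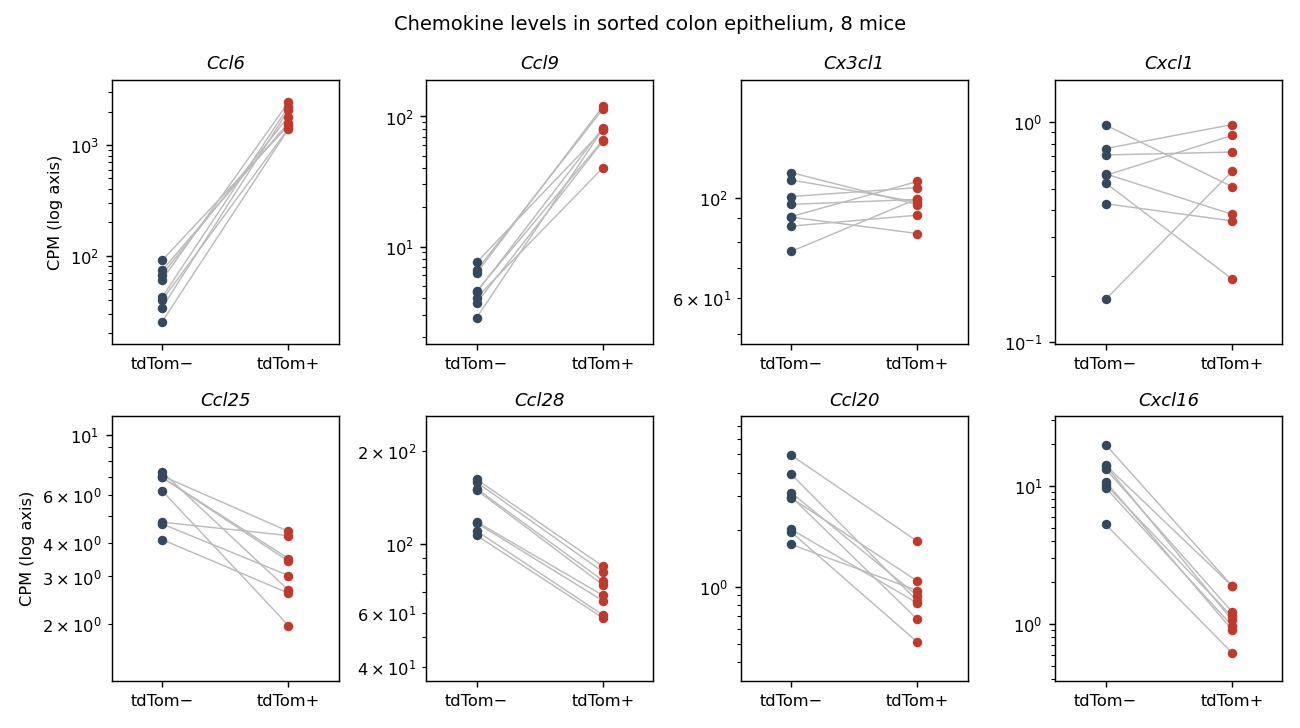
Level of each of the 8 chemokine genes that passed the filter on low counts, in CPM on a log axis whose range differs between panels. Each point is 1 library, the 8 tdTom- libraries on the left and the 8 tdTom+ libraries on the right, and a line joins the libraries of a mouse. Ccl6 and Ccl9 climb in every mouse, Ccl20, Ccl25, Ccl28 and Cxcl16 descend in every mouse, and the lines of Cx3cl1 and Cxcl1 cross.

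Across all genes, 15841 passed the filter, and the quasi-likelihood test of edgeR called 51% of them at a Benjamini-Hochberg adjusted p under 0.01. It put 4032 (25.5%) higher and 4042 (25.5%) lower in tdTom+ cells. Of the 10 chemokine genes, 8 passed the filter, 2 of them higher (Ccl6 and Ccl9), 4 lower (Ccl20, Ccl25, Ccl28 and Cxcl16) and 2 in neither group (Cx3cl1 and Cxcl1). Ccl5 and Cxcl5 had too few reads to pass. The groups did not overlap, with the tdTom+ libraries above, for Ccl6 and Ccl9, against 15.2% of all genes tested. They did not overlap, with the tdTom+ libraries below, for Ccl28 and Cxcl16, against 15.3% of all genes tested, or 30.5% in either direction. Since the genes were chosen on this comparison, nothing is read from these counts. The median log2 fold change was -0.47 over the 8 genes and 0.00 over all genes tested.

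Cxcl16 (chr11:70453983-70459984, minus strand) lay furthest toward tdTom- cells. Its level was 0.620 CPM at the lowest, 1.10 CPM at the median and 1.90 CPM at the highest in tdTom+ cells, and 5.27, 12.0 and 19.9 CPM in tdTom- cells. The groups did not overlap although mouse 4 was lowest in both of them. The log2 fold change was -3.32 (SE 0.25), a 9.98-fold lower level in tdTom+ cells, and 165 genes tested had a lower value. CX3CL1, the other transmembrane chemokine, behaved otherwise. Cx3cl1 (chr8:94772009-94782423, plus strand) ran from 83.3 CPM through a median of 98.4 CPM to 108 CPM in tdTom+ cells and from 76.1 through 93.7 to 113 CPM in tdTom- cells. The ranges overlapped almost wholly, and tdTom+ was the higher library in 5 of 8 mice. The log2 fold change was 0.03 (SE 0.07), with a 95% interval of -0.11 to 0.18. Its sign turned with total counts as library sizes (-0.01) and in mice 5 to 8 alone (-0.04), so no direction is given.

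Ccl28 (chr13:119623819-119654354, plus strand) had the most even ratio between the populations from mouse to mouse, though not the most even level. It had 57.7 CPM at the lowest, 71.0 CPM at the median and 84.8 CPM at the highest in tdTom+ cells, and 107, 134 and 162 CPM in tdTom- cells. Mouse 1 was lowest and mouse 3 highest in both populations, and the groups did not overlap. The log2 fold change was -0.92 (SE 0.10), a 1.90-fold lower level. The log2 ratio within a mouse lay between -1.02 and -0.79 in all 8 mice, with an SD of 0.077, which was the smallest of the 8 genes that passed the filter.

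Ccl25 (chr8:4325210-4360020, plus strand) and Ccl20 (chr1:83116766-83119167, plus strand) were lower in tdTom+ cells of 8 of 8 mice at levels of a few CPM. Ccl25 had 1.98, 3.22 and 4.40 CPM at the lowest, the median and the highest in tdTom+ cells, and 4.10, 6.58 and 7.29 CPM in tdTom- cells. The groups overlapped, and in mouse 7 the levels were 4.24 and 4.75 CPM. The log2 fold change of Ccl25 was -0.91 (SE 0.16). Ccl20 had 0.511, 0.869 and 1.74 CPM in tdTom+ cells and 1.67, 2.96 and 4.94 CPM in tdTom- cells. Its groups overlapped only through mouse 2, the highest tdTom+ library, and mouse 4, the lowest tdTom- library. The log2 fold change of Ccl20 was -1.64 (SE 0.25).

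The neutrophil chemokines were rare in both populations. Cxcl1 (chr5:90891241-90893115, plus strand) had 3 to 18 counts in a tdTom+ library and 3 to 30 in a tdTom- library, with medians of 0.554 and 0.578 CPM. It was higher in 4 mice and lower in 4, and the log2 fold change of -0.03 (SE 0.31) had a 95% interval of -0.63 to 0.57, which leaves changes of moderate size undetectable at this depth. Its sign turned when a single mouse was left out, between -0.16 and 0.13. Cxcl5 (chr5:90759299-90761625, plus strand) had 0 to 8 counts in a tdTom+ library and 4 to 21 in a tdTom- library, 18 against 82 in all, and did not pass the filter. The tdTom- library was the higher one in 8 of 8 mice. Ccl5 (chr11:83525778-83530518, minus strand) had 3 counts in all tdTom+ libraries together and 6 in all tdTom- libraries. No library had more than 3, so Ccl5 was at or under the floor everywhere and is given no fold change.

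**Figure D2:**
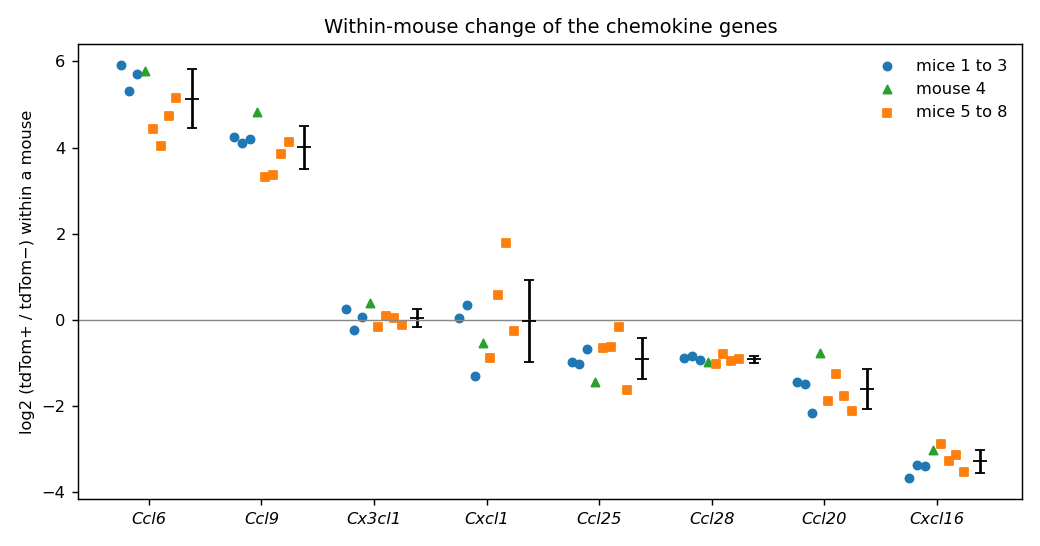
Log2 ratio of the tdTom+ to the tdTom- level within each of the 8 mice, for the 8 chemokine genes that passed the filter, with 0.5 counts added to each count. Symbols mark the 3 series of mouse numbers, and the black bar gives the mean ± SD over 8 mice. The points of Ccl28 lie closest together. The points of Ccl6 from mice 5 to 8 lie below those from mice 1 to 3, a difference that did not pass the test.

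Levels were set in order between genes on the scale of CPM per kilobase of exon. In tdTom+ cells Ccl6 had a median of 946 CPM per kilobase, and 41 of the genes tested had a higher median. Ccl6 alone made up 91.1 to 94.1% of the summed level of the 10 genes in each tdTom+ library. Cx3cl1 (26.5), Ccl9 (26.1) and Ccl28 (19.0 CPM per kilobase) followed, and each overlapped its next neighbour in range except that Ccl28 and the next gene did not. Ccl25 (1.21), Ccl20 (0.611), Cxcl1 (0.582) and Cxcl16 (0.365 CPM per kilobase) overlapped each other from one to the next, and Cxcl5 and Ccl5 came last.

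In tdTom- cells the order was another. Ccl28 had a median of 35.9 CPM per kilobase, Ccl6 28.6 and Cx3cl1 25.3, and the range of each over 8 libraries overlapped that of the next. Within a mouse, Ccl28 lay above Cx3cl1 in 8 of 8 mice, Ccl28 above Ccl6 in 5 of 8 and Ccl6 above Cx3cl1 in 4 of 8, so the place of Ccl6 among them was not fixed. They made up median shares of 34.1%, 28.0% and 25.2% of the summed level. A step followed to Cxcl16 (3.98), Ccl25 (2.47), Ccl20 (2.09), Ccl9 (1.48) and Cxcl1 (0.607 CPM per kilobase), each overlapping the next.

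**Figure D3:**
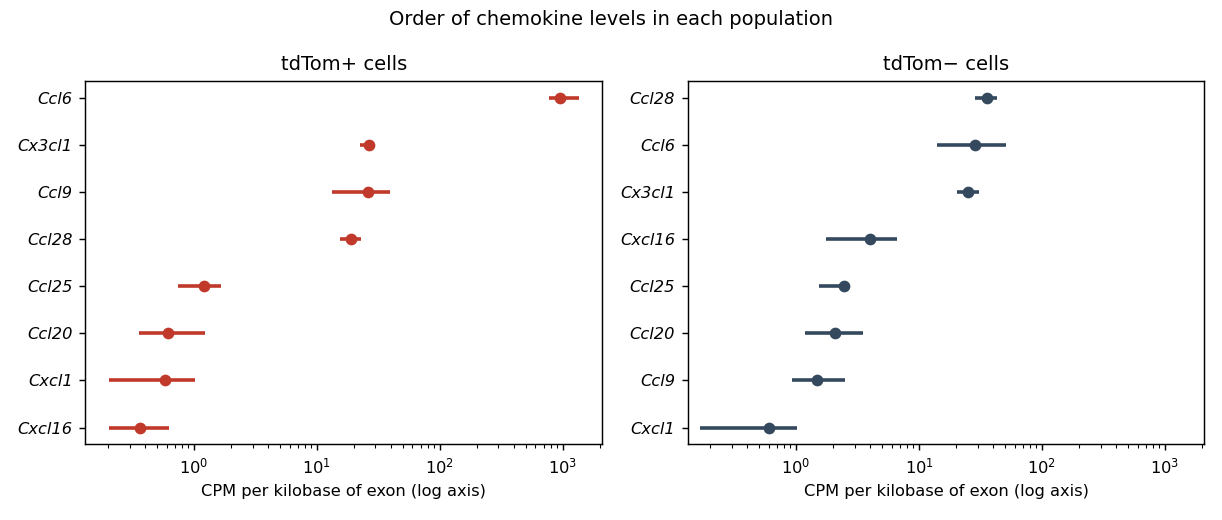
Level per kilobase of exon of the 8 chemokine genes that passed the filter, on a log axis, in tdTom+ cells (left) and tdTom- cells (right), sorted by the median. Points are medians and bars run from the lowest to the highest of 8 libraries. Ccl6 stands apart at 946 CPM per kilobase in tdTom+ cells, while Ccl28, Ccl6 and Cx3cl1 overlap at the top in tdTom- cells.

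The tdTom- level of Ccl6 was set beside that of goblet cell markers in the same libraries. As a percentage of the tdTom+ level of the same mouse, Ccl6 in tdTom- cells lay between 1.64% in mouse 1 and 6.05% in mouse 6, with a median of 2.66%. Ccl9 lay between 3.54% and 10.02%, with a median of 5.72%. For the 8 goblet and secretory markers the median percentage ran from 3.61% for Muc2, the main gel-forming mucin of the colon, to 7.70% for Zg16, a lectin of the mucus layer. In each mouse taken alone, Ccl6 was within the range of the 8 markers in 2 of 8 mice and Ccl9 in 7 of 8. The part of residual labelled or secretory cells in the tdTom- level of Ccl6 was not tested.

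**Figure D4:**
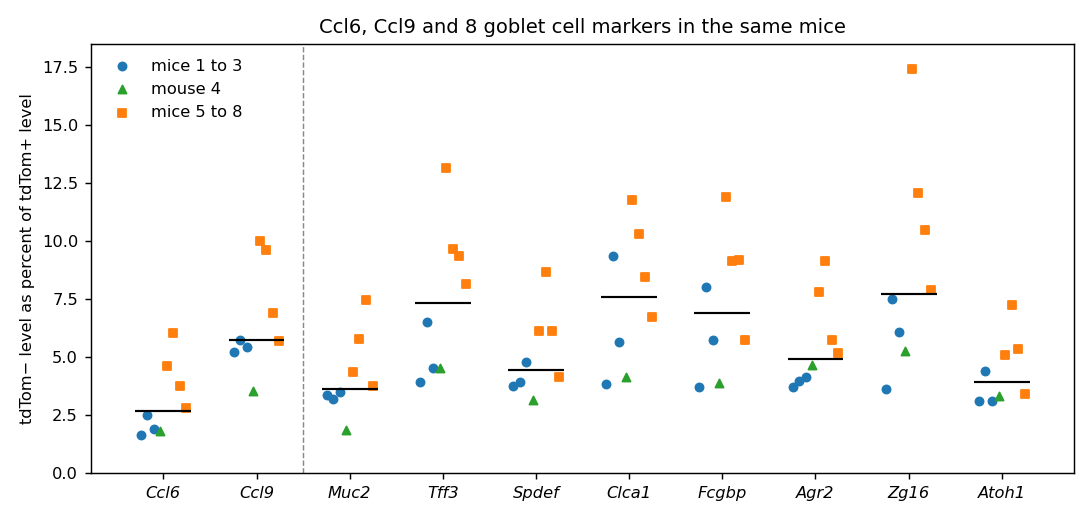
Level in tdTom- cells as a percentage of the level in tdTom+ cells of the same mouse, for Ccl6, Ccl9 and 8 goblet cell and secretory markers. Each point is 1 mouse, symbols mark the 3 series of mouse numbers, and horizontal lines are medians over 8 mice. Ccl6 has the lowest median at 2.66%, and points of mice 5 to 8 tend to sit higher for every gene shown.

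The change between populations was compared between mice 1 to 3 and mice 5 to 8 with an interaction term in edgeR, a measure that the choice of the genes did not use. Ccl6 had 2067 to 2428 CPM in tdTom+ cells of mice 1 to 3 and 1409 to 1805 CPM in those of mice 5 to 8, with 34.0 to 60.6 and 39.7 to 90.8 CPM in tdTom- cells. Its log2 ratios were 5.32 to 5.93 in mice 1 to 3, 5.78 in mouse 4 and 4.05 to 5.15 in mice 5 to 8. The ranges of mice 1 to 3 and mice 5 to 8 lay apart, but the share of all genes that do so was not counted. The difference was -1.06 on the log2 scale (SE 0.31), with an adjusted p of 0.847 over the 15851 genes tested by edgeR, and with the mouse as a block -1.04 (SE 0.21) with an adjusted p of 0.134. For Ccl9 the log2 ratios of these series overlapped, at 4.12 to 4.26 and 3.31 to 4.12. Ccl9 had a difference of -0.53 (SE 0.34) with an edgeR adjusted p of 0.848, and the other 6 genes had adjusted p-values from 0.908 to 0.993. No gene at all passed an adjusted p of 0.01 (0%) in edgeR's test, while 871 (5.49%) had an unadjusted p under 0.05, and DESeq2 called 1. The series differ in mouse number only as far as the labels tell, and what else differed between them cannot be told apart from it.

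The patterns most like that of Ccl6 over the 16 libraries were found by the root mean square difference of log2 CPM, each gene centred on its own mean. They belonged to Spink4 (0.228), a Kazal-type peptide of goblet cells, and Ramp1 (0.228), a partner of the calcitonin gene-related peptide receptor. Gm1123 (0.281), Tpsg1 (0.287), a tryptase, and Pla2g2a (0.316), a gene of the secreted phospholipase family, came next. Spink4 had medians of 2656 CPM in tdTom+ cells and 76.5 CPM in tdTom- cells. Ccl9 came at place 61, with 0.724. This measure uses the difference between populations and is a description.

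The genes around Ccl6 and Ccl9 were described in a window of 346 kb, which was set after values had been seen. Of 21 genes, 9 were tested, 7 were higher in tdTom+ cells, 0 were lower and 5 had 0 counts in every library. Over all genes tested 25.5% were higher and 25.5% lower, and since the window was set after values had been seen, nothing is read from the count. Besides Ccl6 and Ccl9 these were Mmp28, a matrix metalloproteinase, at 2.61 (SE 0.12) on the log2 scale, and the whey acidic protein family genes Wfdc17 at 2.21 (SE 0.23) and Wfdc18 at 2.63 (SE 0.22). Gm11430 had 3.01 (SE 0.15), and E230016K23Rik, which lies across Ccl6 on the opposite strand, had 1.48 (SE 0.27). The antisense gene held 172 counts in tdTom+ cells against 271114 of Ccl6, and the authors counted by strand. Taf15 and Heatr6 at either side passed in neither direction, and the CC chemokine genes Ccl5, Ccl3 and Ccl4 were near 0 in both populations.

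**Figure D5:**
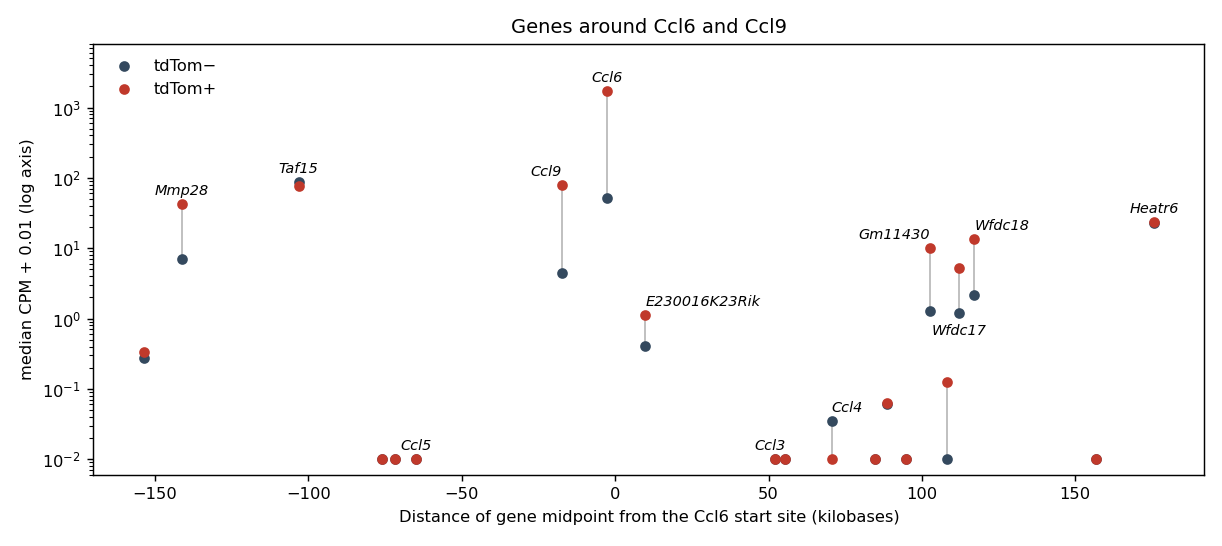
Median CPM plus 0.01, on a log axis, of the 21 genes around Ccl6 and Ccl9 in tdTom+ and tdTom- cells (8 libraries each), against the distance of the gene's midpoint from the Ccl6 start site in kilobases. Grey lines join the medians of a gene, and medians of 0 sit at 0.01. Ccl6 and Ccl9 stand high in tdTom+ cells, while Ccl5, Ccl3 and Ccl4 lie at the bottom.

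Of 30 other chemokine ligand genes in the tables, 4 passed the filter, 2 of them higher in tdTom+ cells and 0 lower, against 25.5% of all genes tested in each direction. Cxcl11, a ligand of CXCR3, had 1.81 to 2.69 CPM in tdTom+ cells and 0 to 0.478 CPM in tdTom- cells, and its log2 fold change was 3.60 (SE 0.29, edgeR adjusted p = 7.71e-10). Ccl27a, a ligand of CCR10 like CCL28, was higher in 8 of 8 mice, with 0.80 (SE 0.17, edgeR adjusted p = 0.00037), opposite in direction to Ccl28. Cxcl9 had a log2 fold change of 1.15 (SE 0.47) with an edgeR adjusted p of 0.0384, and of 0.000585 with the mouse as a block. Cxcl10 had -0.48 (SE 0.29, edgeR adjusted p = 0.16). Of the other 26 genes, 23 had at most 10 counts in each library, and 7 of these had no count. Cxcl12, the ligand of CXCR4, did not pass either, but its tdTom- libraries all lay above its tdTom+ libraries, with 91 counts in all against 1. Of all genes tested, 15.3% lay apart in that direction. Pf4 and Cxcl13 did not pass and went the other way, each higher in tdTom+ cells of 8 of 8 mice. Pf4 had 116 counts in tdTom+ cells against 56, and Cxcl13 91 against 27, with groups that overlapped. These genes were named after their values were seen.

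The receptors that these chemokines use had low counts, and most of them did not pass the filter. Of 18 chemokine receptor genes, 2 passed the filter, Cxcr2 and Cxcr4. Of these 1 was higher in tdTom+ cells and 0 were lower, against 25.5% of all genes tested in each direction. Cxcr2, the receptor of CXCL1 and CXCL5, had 0.282 to 1.18 CPM in tdTom+ cells and 0.366 to 0.765 CPM in tdTom- cells, with a log2 fold change of 0.26 (SE 0.26, edgeR adjusted p = 0.397). Ccr1, the receptor of CCL6 and CCL9, had 10 counts in tdTom+ cells together and 136 in tdTom- cells. Its tdTom- libraries (0.350 to 1.47 CPM) all lay above its tdTom+ libraries (0 to 0.153 CPM), at levels too low to pass the filter. Each tdTom- library held 9 to 27 counts of Ccr1, above the floor. Of all genes tested, 15.3% lay apart in that direction. Ccr3, Ccr6, Ccr9, Ccr10, Cx3cr1 and Cxcr6 did not pass the filter either, with at most 33 counts over 8 libraries of a group. Cxcr4, the receptor of CXCL12 and of no gene of the 10, was higher in tdTom+ cells with a log2 fold change of 1.96 (SE 0.23, edgeR adjusted p = 3.37e-07).

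Atypical receptors bind chemokines without G protein signalling, and proteases shed or trim them. Of 5 atypical receptor genes 3 passed the filter and 1 was lower in tdTom+ cells, against 25.5% of all genes tested. It was Ackr3, with -0.71 (SE 0.16, edgeR adjusted p = 0.000541), a call that was lost in mice 1 to 3 alone and in mice 5 to 8 alone. Dpp4, whose protease trims the ends of many chemokines, was higher with 0.23 (SE 0.05, edgeR adjusted p = 0.000674), but this call was lost with total counts as library sizes and in mice 1 to 3 alone. Adam10 and Adam17, which shed CX3CL1 and CXCL16, had -0.09 (SE 0.05) and 0.12 (SE 0.05) and did not pass (edgeR adjusted p = 0.16 and 0.0522). Of these 3 protease genes 1 was thus higher and 0 were lower, against 25.5% of all genes tested in each direction.

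NF-kB drives Ccl20, Cxcl1, Cxcl5 and other inducible chemokine genes, and its feedback and target genes were divided between the populations. Of 14 genes 13 passed the filter, 8 of them lower in tdTom+ cells, 4 higher and 1 neither, against 25.5% of all genes tested in each direction. The median log2 fold change of the 13 genes was -0.48 and that of all genes tested 0.00. Nfkbiz, a nuclear regulator of NF-kB targets, had 19.9 to 30.4 CPM in tdTom+ cells and 44.1 to 93.1 CPM in tdTom- cells, with -1.56 (SE 0.13, edgeR adjusted p = 1.28e-09). Relb, an NF-kB subunit, had -1.20 (SE 0.09), Tnfaip2 -1.15 (SE 0.33), and the inhibitor Tnfaip3 -1.04 (SE 0.10), all past the threshold. The groups of Tnfaip2 overlapped, and 2 of 8 mice had the higher level in tdTom+ cells. It had only 4 to 16 counts in a tdTom+ library and 8 to 43 in a tdTom- library. Tnip1, another inhibitor, was lower too, with 46.0 to 55.7 CPM against 87.7 to 127 CPM. Icam1, an adhesion molecule, was higher with 0.91 (SE 0.14, edgeR adjusted p = 1.4e-05). In mice 1 to 3 alone, 1 gene of the list was higher in place of 4.

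Markers of other cell types moved between the same libraries, and their part in the values above was not tested. Over all genes tested, 25.5% were higher and 25.5% lower in tdTom+ cells. All 8 goblet and secretory markers were higher in tdTom+ cells, with a summed level of 49189 to 103030 CPM against 2229 to 8663 CPM, led by Clca1, Fcgbp and Muc2. All 8 absorptive markers were lower, with 337 to 656 against 5868 to 11525 CPM, led by Car1, Car4 and Krt20, and all 8 enteroendocrine markers were lower, with 319 to 805 against 1418 to 4144 CPM, led by Chgb, Chga and Gcg. Of 8 tuft markers 6 were lower, with 52.3 to 110 against 95.1 to 165 CPM, led by Dclk1, Trpm5 and Avil, and with the mouse as a block Avil was lower too (edgeR adjusted p = 0.0122 without the block and 0.00312 with it). Of 6 M cell markers 3 were lower and 1 higher, with 203 to 232 against 185 to 221 CPM, led by Tnfrsf11a, Anxa5 and Marcksl1. Of 6 general epithelial markers 5 were lower and 1 higher, with 6271 to 7268 against 9504 to 12274 CPM, led by Krt8, Krt19 and Epcam.

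Leukocyte markers bear on chemokines that immune cells also make. Their counts of calls stand beside 25.5% of all genes tested in each direction. None of 10 T and intraepithelial lymphocyte markers passed the filter, each had at most 10 counts in every library, and they summed to 0.129 to 0.620 CPM in tdTom+ cells and 0.284 to 1.36 CPM in tdTom- cells, led by Trac, Trdc and Cd3e. None of 6 B and plasma cell markers passed, with 0.120 to 0.958 against 0.521 to 2.23 CPM, led by Ms4a1, Jchain and Cd79b. Of 10 macrophage and dendritic cell markers 1 was lower, Cd68, and 0 were higher, with 39.2 to 56.4 against 39.0 to 70.2 CPM, led by Cd14, Itgam and Lyz2. Cd14 alone had means of 38.3 CPM in tdTom+ cells and 34.5 CPM in tdTom- cells. Csf1r had 9 counts in all tdTom+ libraries against 105 in all tdTom- libraries, and C1qb 10 against 93. Itgax had 4 against 62, C1qc 8 against 41 and Adgre1 1 against 33. C1qa went the other way with 81 against 66, and none of these passed the filter. Lyz2, at -2.11 (SE 0.68) and lower in 8 of 8 mice, had an edgeR adjusted p of 0.0108 and was called lower once mice were blocked (edgeR adjusted p = 1.62e-06). The highest tdTom- sum of the macrophage and dendritic cell markers was that of mouse 2. Mouse 2 also had the highest tdTom- sums of the absorptive, tuft, NF-kB and chemokine receptor lists. Mouse 2 had the highest tdTom- levels of Ccl20 and Cxcl16, and also of Cx3cl1, for which no direction is given, but not of Ccl6. Without mouse 2 the log2 fold change of Ccl20 was -1.67 and that of Cxcl16 -3.29. The part of any cell type in these levels was not tested. Of 6 pan-leukocyte markers Lcp1 was higher with 1.47 and Ptprc lower with -1.52 on the log2 scale. The sums were 22.0 to 29.5 against 12.4 to 19.1 CPM, and Coro1a came next in level. Lcp1 alone had means of 23.8 CPM in tdTom+ cells and 8.64 CPM in tdTom- cells. Laptm5 had 4 counts in all tdTom+ libraries against 89 in all tdTom- libraries, and Coro1a 25 against 74. Cd52 had 12 against 34 and Cd53 had 2 against 24, and none of these passed the filter. Of 8 granulocyte and mast cell markers 1 was lower, Siglecf, with sums of 1.03 to 2.17 against 4.26 to 8.88 CPM, and Mcpt1 and Mcpt2 came next. Of 8 stromal and endothelial markers 2 were lower, Acta2 and Pecam1, with 3.65 to 5.59 against 6.04 to 8.26 CPM, and Col1a1 came next in level. None of the markers in these lists was at 0 in every library.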

How the data were processed

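RNA of EpCAM+ tdTom+ and tdTom- colon cells of 8 mice was sequenced by the authors as stranded mRNA libraries. Per the submitters' processing notes, reads were aligned with TopHat2 2.1.1 to GRCm38.p3. The authors deposited raw counts per gene on exons from featureCounts (version 1.5.0-p1 in the file headers, Subread 1.5.2 in the notes), from primary alignments on the reverse strand. The notes also name DESeq2 1.14.1. Cells were dissociated and sorted before RNA extraction, and the part of these steps in the levels was not tested. The labels and the study's methods on animal treatment give 1 mg tamoxifen on 3 days for these samples, and its methods on sequencing give another schedule. Exon lengths are those in the deposited tables, in bases.

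Symbols came from GENCODE M21 for 44585 of 45513 genes. At least 1 count was found for 27559 genes. Counts as deposited were fitted in R 4.3.3 by edgeR 4.0.16 (low counts filtered by filterByExpr, TMM, glmQLFit and glmQLFTest, no mouse term, Benjamini-Hochberg adjusted p under 0.01 over all genes tested). CPM used TMM library sizes, and log2 CPM a prior count of 2. Within-mouse ratios added 0.5 counts. The F statistic and the fitted change gave each standard error (SE). The interaction of mouse number series and population was fitted on 14 libraries, without mouse 4. Summaries used Python 3.11.15, numpy 2.4.6 and pandas 2.3.3. Other settings were RLE size factors, total counts as library sizes, DESeq2 1.42.0, no filter, the mouse as a block, subsets of mice, and an adjusted p of 0.05.

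The genes and lists were chosen with earlier results of these data known. All 10 chemokine genes were named, and of the lists up to 6 genes past the threshold with the largest changes, the receptors of the 10, the 3 most abundant genes of each marker list and the 5 genes most like Ccl6. Genes named beyond this rule were chosen after their values were seen. They were Cxcl9, Cxcl10, Cxcl12, Cxcl13, Pf4, Cd68, Adam10, Adam17, Zg16, and the neighbours of Ccl6. Among leukocyte markers they were also Laptm5, Cd52, Cd53, Csf1r, C1qa, C1qb, C1qc, Itgax and Adgre1. One gene that the rule names is not reported here.

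Libraries of the same mouse number, which the labels give to both populations, deviated together from the group means (correlations of 0.223 to 0.408, against at most 0.168 between different mice). No 2 libraries of a group agreed within sampling noise over the 56 pairs (lowest chi-square per degree of freedom 11.7). Of the 50-base windows of the transcripts, 1.97% were shared with other genes for Ccl9, 0.69% for Cxcl5, 0.19% for Ccl28 and 0% for the other 7, and none with another chemokine gene. In simulated counts, edgeR found 98 of 100 genes changed by 1 on the log2 scale and 100 of 100 changed by 2 in the comparison of populations, with 1 false call among 15743 genes. For the interaction it found 56 of 100 and 94 of 100, with 1 false call among 15676 genes. The changed genes were drawn only from genes with more than 50 expected counts in every library. Rare genes such as Cxcl1 and Ccl20 are therefore not covered. Far fewer genes were changed than were called in the real comparison, and no pairing by mouse was simulated. The rates hold for that setting only.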

Additional observations from a re-analysis of the deposited data

Results flagged for a closer look

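In 66 sets of 8 libraries (each gene examined in each population), 3 libraries stood far from the other 7 of their group by Dixon's ratio, and chance gives about 3.3 such cases. None was a library of one of the 10 chemokine genes. Bcl3, an NF-kB cofactor, had 5.42 log2 CPM in tdTom+ cells of mouse 1, against 4.70 to 4.96 in the other mice. The tdTom- library of mouse 1 stood apart for Bcl3 too, with 5.64 log2 CPM against 5.17 to 5.34. Traf1, an adaptor of tumour necrosis factor receptors, had 2.60 log2 CPM in tdTom- cells of mouse 6 against 2.89 to 3.14 in the others.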

How the results depend on the processing

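Of 415 values recomputed under other settings, 399 stayed on the same side of the threshold or within 1.5 times, 16 moved further and 0 reversed a call. With the mouse as a replicate block, 4494 genes were higher and 4574 lower. Cxcl9 was then the third of the other ligands to be higher, and the markers Avil and Lyz2 were lower. The calls of the 10 chemokine genes stayed as they were. Since those genes were chosen on this comparison, nothing is read from their calls under any setting. In mice 1 to 3 alone, 2546 genes were higher and 2559 lower, 1 other ligand, 1 NF-kB gene and 0 processing genes were higher, and 0 atypical receptors were lower. In mice 5 to 8 alone, 1 receptor and 0 atypical receptors were lower. These subsets have fewer samples. Without the filter, 5 of the 10 chemokine genes were lower in place of 4, with Cxcl5 added, 4 other ligands were higher and 2 lower, 2 receptors were lower and 2 atypical receptors were lower. At an adjusted p of 0.05, 2 atypical receptors were lower. With total counts as library sizes, 0 processing genes were higher, and the cause was not tested. That scaling moved the median of all genes to -0.05. In the interaction of series and population, DESeq2 called 1 gene, and leaving out each mouse in turn gave 0 to 1, the 1 without mouse 8. Leaving out each mouse in turn kept the log2 fold change of Ccl6 between 4.96 and 5.25. Depth limits Cxcl1, Cxcl5, Ccl5 and most receptors, which lie near the floor.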
